A study of Mus musculus with 12 samples.

Results

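H3K27ac, a histone acetylation found at active promoters and enhancers, and the sites bound by tagged GLI1 were examined around 4 genes of the cardiac wall-stress response, Nppa, Nppb, Ankrd1 and Xirp1. The members were all H3K27ac regions and GLI1 sites that touched a gene body or the 50 kb on either side of it, in mouse build mm10. Nppa and Nppb lie 13516 bp apart on chromosome 4, so their windows were joined and their regions counted a single time. This gave 40 regions of the 94481 in the series and 2 GLI1 sites of 2605, in 3 windows: chromosome 4, 147935786 to 148052074, chromosome 19, 36061965 to 36169844, and chromosome 9, 119963755 to 120073598.

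The samples were cardiac progenitor cells made from mouse embryonic stem cells of the line GLI1-FTA, strain A2Lox.cre, and harvested on day 6 of differentiation. Dox cells received 500 ng/ml doxycycline for 24 hours from day 5 to overexpress GLI1, a zinc finger activator downstream of Hedgehog signalling, and control cells of the same line were untreated. H3K27ac was measured in 2 dox and 2 control samples, and GLI1 was captured through its Avi tag from 2 dox samples. Control GLI1 pulldowns and inputs were not analysed here, and whether the line is a single clone is not given in the sources used here. Per the deposited names the replicates of a group were combined, so each condition is a single pooled list without a spread between samples. Differences between dox and control cells were therefore not tested and are described without p-values. The material is a bulk population, in which fewer acetylated cells and less acetylation per cell cannot be told apart.

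Nppa and Nppb encode the natriuretic peptides ANP and BNP, hormones that cardiomyocytes release under stretch and that lower blood volume and pressure through the guanylyl cyclase receptor Npr1. Both genes are active in the embryonic heart, and their products are classical markers of cardiac differentiation and load. Ankrd1 encodes a muscle ankyrin repeat protein that binds titin in the sarcomere, also acts in the nucleus and is induced by strain. Xirp1 encodes an actin-binding Xin repeat protein of the intercalated disc.

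The RefSeq promoter sequences of 3 of the genes (build GRCm38.p6, the assembly behind mm10) are shown because H3K27ac at these starts is the subject of the comparisons below. Each runs from 250 bases before the start to 50 after it, 5′ to 3′ on the strand of the gene. Capitals mark matches, on both strands, to a GATA site (letters AGATAA, also with G in last place, and letters TGATAA, also with G in last place), an NKX2-5 core (letters AAGTG), a TEAD core (letters CATTCC) or a T-box core (letters GGTGTGA and also AGGTGTG).
Nppa, chr4:148000472-148000771, plus strand: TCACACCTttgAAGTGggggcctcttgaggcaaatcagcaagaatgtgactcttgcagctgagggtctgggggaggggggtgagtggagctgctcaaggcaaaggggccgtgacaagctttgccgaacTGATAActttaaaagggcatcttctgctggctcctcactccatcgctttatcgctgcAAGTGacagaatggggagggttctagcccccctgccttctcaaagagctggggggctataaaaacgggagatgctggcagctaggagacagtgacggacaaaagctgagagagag
Nppb, chr4:147985650-147985949, plus strand: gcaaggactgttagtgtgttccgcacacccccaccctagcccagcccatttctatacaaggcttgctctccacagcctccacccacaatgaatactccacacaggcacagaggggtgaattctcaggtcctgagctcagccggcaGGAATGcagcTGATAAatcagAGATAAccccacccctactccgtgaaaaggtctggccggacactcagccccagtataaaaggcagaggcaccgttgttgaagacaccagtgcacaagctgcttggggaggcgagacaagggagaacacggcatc
Ankrd1, chr19:36119795-36120094, minus strand: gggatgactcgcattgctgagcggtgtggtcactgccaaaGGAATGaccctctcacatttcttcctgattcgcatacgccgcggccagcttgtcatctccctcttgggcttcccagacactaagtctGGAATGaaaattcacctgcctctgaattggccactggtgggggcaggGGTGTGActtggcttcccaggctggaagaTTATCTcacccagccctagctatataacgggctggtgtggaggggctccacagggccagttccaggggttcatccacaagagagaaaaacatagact

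GATA letters stood in all 3 of these promoters, against 29.8% of 32817 RefSeq promoter windows of the same length. GATA factors are activators of many cardiac genes. The TEAD core, bound by the partners of YAP, stood at a single place in the Nppb promoter and at 2 places in the Ankrd1 promoter, and 14.7% of all promoters held it. T-box cores were present in the Nppa promoter, where 2 overlapping matches covered its first bases, and in the Ankrd1 promoter, against 8.42% of all promoters. The NKX2-5 core occurred at 2 places in the Nppa promoter and is common, in 46.4% of all promoters. No match to the GLI core GACCACC was found in these windows (2.8% of all promoters), nor to the SRF CArG box (1.63%) or the MEF2 site (3.19%). A match is a description of the letters and not evidence of binding.

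In the figures and values that follow, fold enrichment is the authors' ratio of the pileup at a summit to its local background. The value of a region is its highest summit in each list. For a region present in both lists, the log2 ratio of dox over control was shifted so that the median over the 35389 shared regions is 0, from −0.13 before this centring. A ratio of at least 1 in size is called higher or lower. Intervals beside ratios are 95% counting intervals from the recovered pileups and cover counting error only. The reads per library are unknown, but the uniform background recovered from the lists was 3.63 reads in the dox pool and 2.83 in the control pool.

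Of the natriuretic peptide genes themselves, only Nppb had H3K27ac listed at it, in control cells alone. The control list held 2 regions at the start of Nppb, at chromosome 4, 147985244 to 147985698 and 147985806 to 147986339, with fold enrichments of 5.20 and 5.23. Their pileups in control cells were 24 and 27 reads, over local backgrounds of 3.81 and 4.35 reads. Fold enrichments this high were reached by 44.6% and 43.2% of the regions in the control list. No region of the dox list lay at the Nppb start. Of 16328 protein-coding promoter windows, 45.7% overlapped a dox peak, 45.0% a control peak and 2.3% a control peak without a dox peak. The dox list holds only summits past its threshold, with a lowest fold enrichment of 2.58 at the uniform background and of 1.96 at any background, so a weaker dox signal at Nppb would not be in it.

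The control summits lay 485 bp upstream and 100 bp downstream of the Nppb start, and 107 bp between the regions were outside any interval. The TEAD core of the printed sequence, at bases −105 to −100 from the start, lay in that stretch. The GATA match at −84 to −79 lay in the downstream region, and the match at −95 to −90 straddled its edge.

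Nppa had no H3K27ac region over its promoter or gene body in either list, as was the case for 52.0% of protein-coding promoter windows. The nearest regions to the Nppa start were inside the neighbouring chloride channel gene Clcn6. They were a control-only region with a fold enrichment of 4.70 and a dox-only region with 4.54, only 26 bp apart. When intervals up to 500 bp apart were joined, these became a single shared region with a log2 ratio of 0.07. The regions at Nppb stayed in the control list alone under that joining.

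A group of 4 regions lay between genes, upstream of Nppb. A shared region at 147960464 to 147960863 had a fold enrichment of 4.97 in dox and 7.05 in control cells, a log2 ratio of −0.37 (−1.27 to 0.49). The other 3 were control-only, with fold enrichments of 2.58 to 6.01. The 13516 bp between the genes held no region beyond those at the Nppb start. The other 5 regions were weak. They were 3 dox-only regions of 2.75 to 4.59 and a control-only region of 3.75 between Plod1 and that group, and a dox-only region of 4.32 inside Clcn6.

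Stronger regions of this window lay at neighbouring genes. At an end of Clcn6 (148038157 to 148038884) fold enrichment was 9.31 in dox and 8.67 in control cells, a log2 ratio of 0.23 (−0.27 to 0.74). At Plod1, a collagen-modifying lysyl hydroxylase gene, fold enrichment was 9.94 in dox and 5.82 in control cells, a log2 ratio of 0.90 (0.20 to 1.67). The ratio at Clcn6 turned to −0.11 with recovered pileups in place of fold enrichment. In all, the window held 5 dox-only, 5 shared and 7 control-only regions and no GLI1 site.

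**Figure D1:**
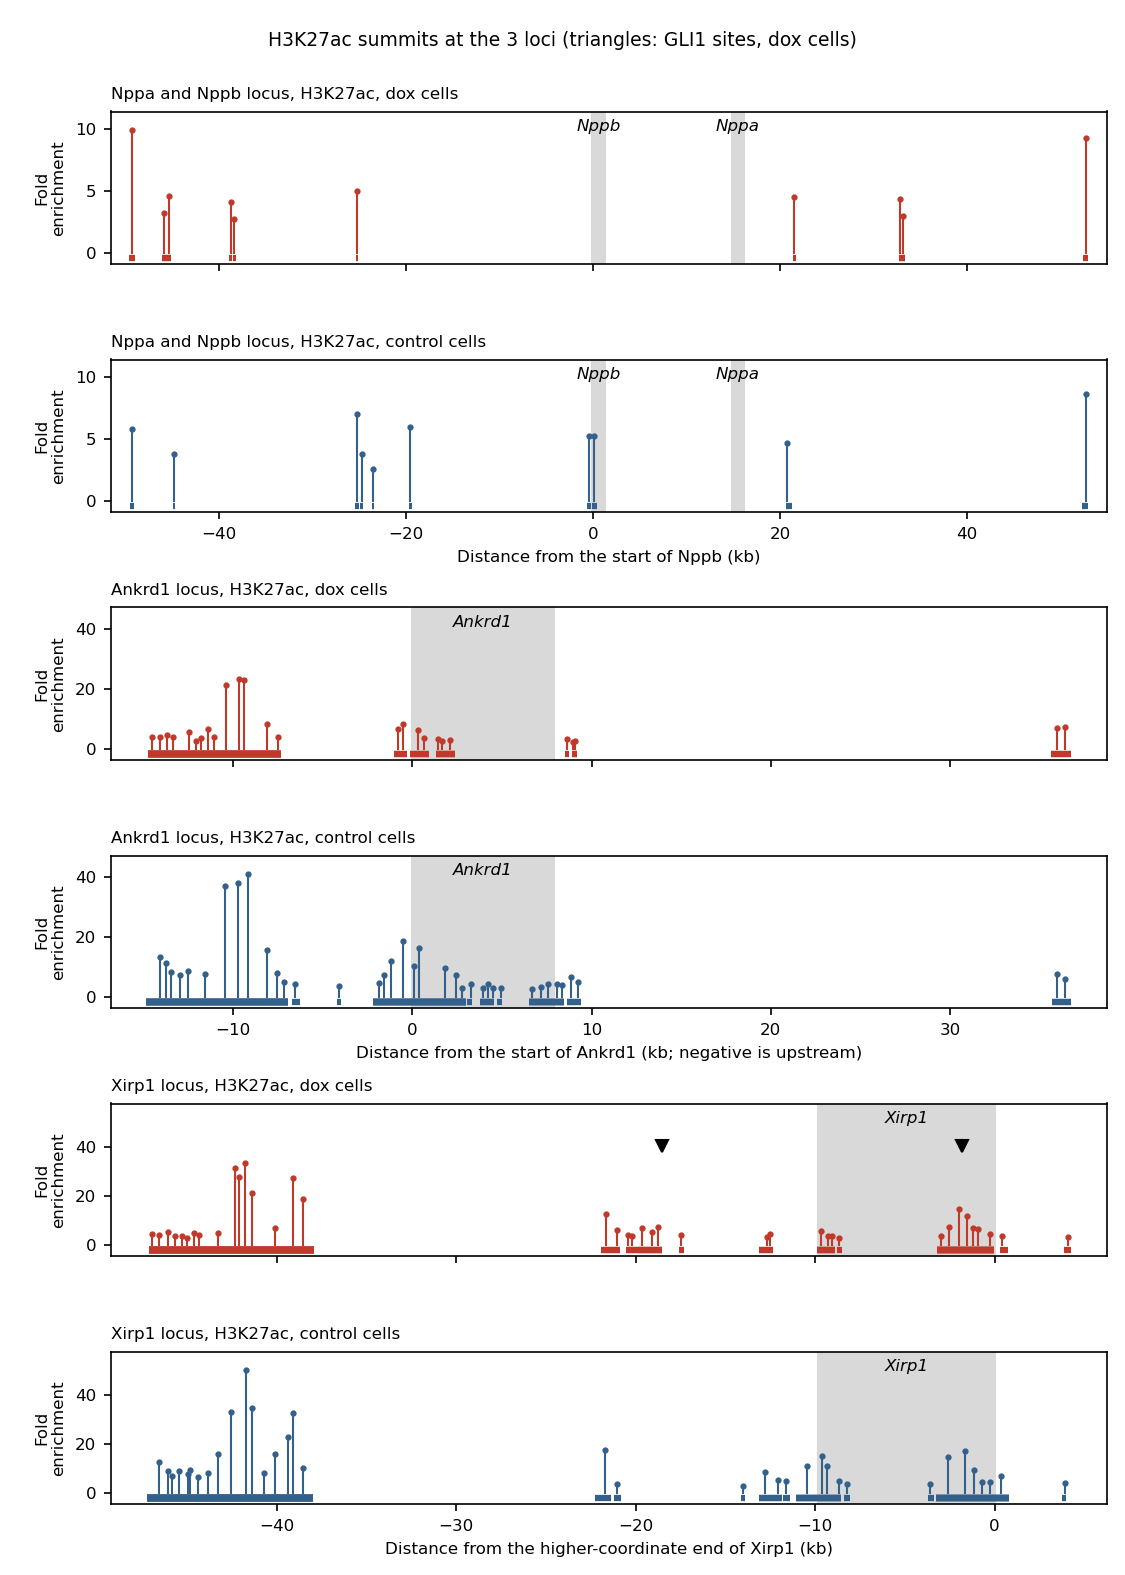
Each vertical line is an H3K27ac summit of 38 of the 40 regions and its height the authors' fold enrichment (y axis), plotted by distance in kb (x axis) in dox cells (upper panel of each pair) and control cells (lower panel). Horizontal bars are the called intervals, grey bands the genes and triangles the GLI1 sites. At Nppb summits stand in the control panel alone, at Ankrd1 the tallest control summit reaches 41.2 against 23.5 in dox cells, and both GLI1 sites lie in the Xirp1 window.

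Ankrd1 was strongly acetylated in control cells, and every region at the gene or upstream of it was weaker or unlisted in dox cells. Over its start, a region on chromosome 19 (36116860 to 36122076) reached a fold enrichment of 8.24 in dox and 18.9 in control cells. The log2 ratio was −1.06 (−1.66 to −0.54), a level 2.09 times higher in control cells after centring. Of all shared regions, 8.31% were at or below −1. Its highest summits lay 39 bp apart, at −505 bp (dox) and −544 bp (control) from the start, with recovered pileups of 38 reads in dox and 104 reads in control cells. In control cells this region was a single interval of 9 summits, and in dox cells it was broken into 3 intervals with 7 summits. The promoter sequence printed for Ankrd1, with its GATA, TEAD and T-box letters, lay wholly inside the control interval. A dox interval that ended at −0.159 kb from the start also covered the GATA and T-box letters and the TEAD core at −123 to −118. The TEAD core at −210 to −205 lay between that interval and the next, which began at −0.319 kb.

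A wider domain began 6930 bp upstream of the Ankrd1 start, at 36126774 to 36134691, between genes. It spanned 7918 bp, a width reached by 0.319% of all regions. Its fold enrichment was 23.5 in dox and 41.2 in control cells, a log2 ratio of −0.68 (−1.01 to −0.36). Values this high were reached by 4.02% of the regions in the dox list and by 0.389% of those in the control list. The domain had the same order as the start region. Its highest summits were not at the same place in the 2 lists.

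Within these regions the difference was not even. Summits of both lists within 200 bp of each other were paired, a step added after the data had been seen. All 9 pairs of the upstream domain were below 0, with log2 ratios of −1.57 to −0.03. The pair at the tallest dox summit had 23.5 in dox and 38.2 in control cells, a log2 ratio of −0.57 (−0.92 to −0.23). The pair at the far edge of the domain had 4.10 in dox and 13.3 in control cells, a log2 ratio of −1.57 (−2.21 to −0.95). Its pileups were 39 reads in dox and 53 reads in control cells, so the local background under that pair was also higher in dox cells. All 3 pairs over the start region were at or below −1, the lowest being −1.79 inside the gene, where pileups were 15 reads in dox and 51 reads in control cells. Of 68596 such pairs in the genome, 51.5% were below 0 and 10.1% at or below −1.

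The rest of the gene carried low acetylation in control cells. There were 4 control-only regions within Ankrd1, with fold enrichments of 3.06 to 4.36, and 2 more upstream of it with 3.61 and 4.24. Beyond the 3′ end a shared region at 36110440 to 36111342 had 3.24 in dox and 6.79 in control cells, a log2 ratio of −0.93 (−2.03 to 0.02). Rpp30, a gene for a ribonuclease P subunit that is the neighbour in the window, had 7.24 in dox and 7.70 in control cells (36083084 to 36084210). Its log2 ratio of 0.04 (−0.64 to 0.74) was the only one above 0 in this window, and it was −0.09 without centring.

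The Ankrd1 window held no dox-only, 4 shared and 6 control-only regions. Covered length was 11.8 kb in the dox list and 19.0 kb in the control list, while over the whole genome it was 66.0 Mb in dox and 59.9 Mb in control cells. An excess of at least 6 control-only over dox-only regions within 50 kb was seen for 3.38% of 20467 protein-coding genes. For Nppa, Nppb and Xirp1 the excess was 4, 2 and 1, reached by 7.49%, 17.7% and 28.5% of genes. The opposite excess, of at least 1 dox-only region over the control-only ones, was seen for 39.8% of genes. Only the 28.5% has the same threshold. Joining intervals up to 500 bp apart left a single control-only region in the Ankrd1 window, since most of the others were close to a shared one. No GLI1 site lay within 50 kb of Ankrd1.

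**Figure D2:**
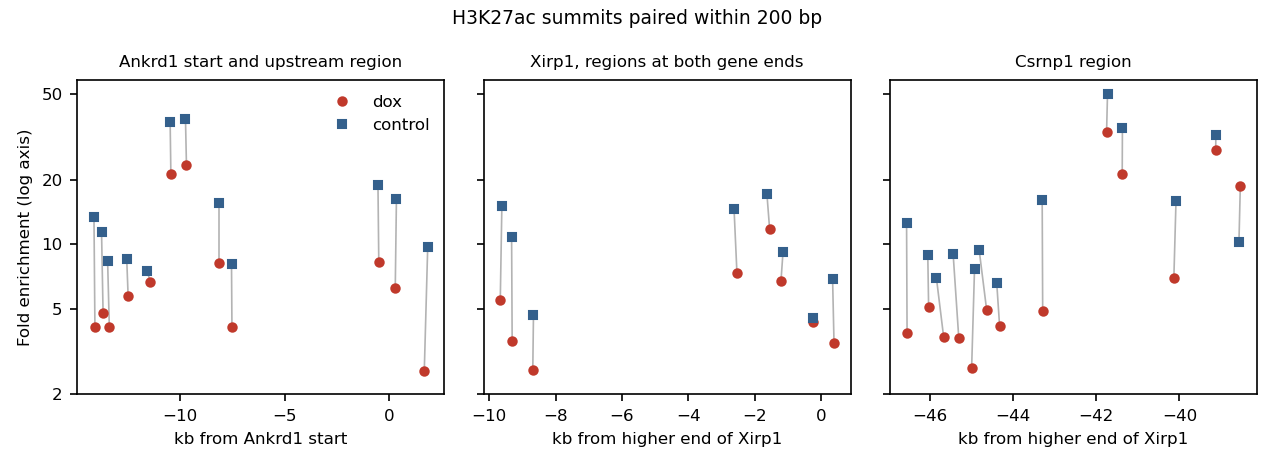
Fold enrichment (y axis, log scale) of H3K27ac summits that lie within 200 bp of each other in the 2 lists, by position in kb (x axis); circles are dox, squares control, and grey lines join a pair. All 12 pairs drawn for Ankrd1 stand lower in dox cells. At Csrnp1 the pair nearest to Xirp1 stands higher, at 18.6 in dox and 10.2 in control cells, with pileups of 85 and 76 reads.

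Xirp1 was the one gene of the group with GLI1 sites, and the ratio was lower at one of its ends than at the other. At the end of lower coordinate (chromosome 9, 120012523 to 120015117) fold enrichment was 5.50 in dox and 15.1 in control cells. The log2 ratio of −1.32 (−2.09 to −0.66) was the lowest of the 15 shared regions, or 2.50 times higher in control cells after centring. At the end of higher coordinate (120020352 to 120024399) it was 14.6 in dox and 17.1 in control cells, a log2 ratio of −0.10 (−0.56 to 0.35). The counting intervals of the 2 ends did not overlap, but at the higher end the highest summits of the 2 lists were at different places. The summit pair at the highest control summit there had a log2 ratio of −0.40 (−0.90 to 0.07), an interval that overlaps that of the lower end. With recovered pileups the higher end was at −0.49 and the lower end at −1.36. The ends are given by coordinate because no strand was at hand for Xirp1.

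A GLI1 site at 120021742 to 120021842 lay within Xirp1, in the region at the higher end and 1806 bp from that end. The site fell between the strongest summits of the 2 lists, 162 bp from a dox summit of 14.6 and 172 bp from a control summit of 17.1. Of the 5 summit pairs in that region, 4 were below 0 and none was at or below −1. The dox summit nearest to the site was in none of these pairs. At the lower end, which held no site, all 3 pairs were below 0 and 2 were at or below −1. Whether the difference between the ends has to do with the site was not tested.

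The other GLI1 site, at 120005036 to 120005136, lay 8619 bp outside Xirp1, between genes. It shared 34 bp with the edge of a dox-only region at 120003749 to 120005069 and lay in no control peak. That region had a fold enrichment of 7.40 and 34 reads at its summit, 251 bp from the site. It was the strongest of the 8 dox-only regions in the 3 windows. The 2 dox-only regions on its sides had 3.97 and 3.95. The nearest shared region (120001329 to 120002782) had 12.5 in dox and 17.5 in control cells, a log2 ratio of −0.35 (−0.86 to 0.15). Its summit pair on the side of the site had 5.88 in dox and 3.52 in control cells. The log2 ratio of that pair was 0.87 (−0.01 to 1.95), with pileups of 33 reads in dox and 14 reads in control cells. Joining intervals up to 500 bp apart made the dox-only region at the site part of a shared one with a log2 ratio of −0.36. That ratio is set by the same summits of 12.5 and 17.5 and does not measure acetylation at the site.

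Both GLI1 sites were of low strength by the authors' −log10 q, 13.4 for the outer and 16.8 for the inner one, against a median of 30.8 over all sites. At least as strong were 89.6% and 80.2% of all sites. Both lay in a dox peak and the inner one also in a control peak. Over the series 75.0% of sites lay in a dox peak, and 651 of the 2605 lay in a control peak. Of all protein-coding genes, 13.4% had a site within 50 kb and 3.34% had 2 or more.

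The highest acetylation in the Xirp1 window was at Csrnp1, a neighbouring gene for a nuclear protein (119976332 to 119985649). This region of 9318 bp had a fold enrichment of 33.3 in dox and 50.2 in control cells, a log2 ratio of −0.46 (−0.74 to −0.19). Its 13 summit pairs ran between −1.59 and 0.99, and 12 were below 0. The pair above 0 was the one closest to Xirp1, with 18.6 in dox and 10.2 in control cells. Its pileups were closer, 85 reads in dox and 76 reads in control cells, so the local background under that pair was lower in dox cells. Cx3cr1, the chemokine receptor gene on the other side of Xirp1, had no region within the window. The last region on that side (120027334 to 120027858) had 3.24 in dox and 4.18 in control cells (−0.23). Just below Xirp1, a shared region at 120010439 to 120011766 had 4.54 in dox and 8.30 in control cells, a log2 ratio of −0.74 (−1.63 to 0.05). The control-only regions of this window were weak, at 2.87 to 4.69. It held 3 dox-only, 6 shared and 4 control-only regions, and all 6 shared ones were below 0. With width-weighted mean fold enrichments, the one at 120001329 to 120002782 was at 0.05.

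**Figure D3:**
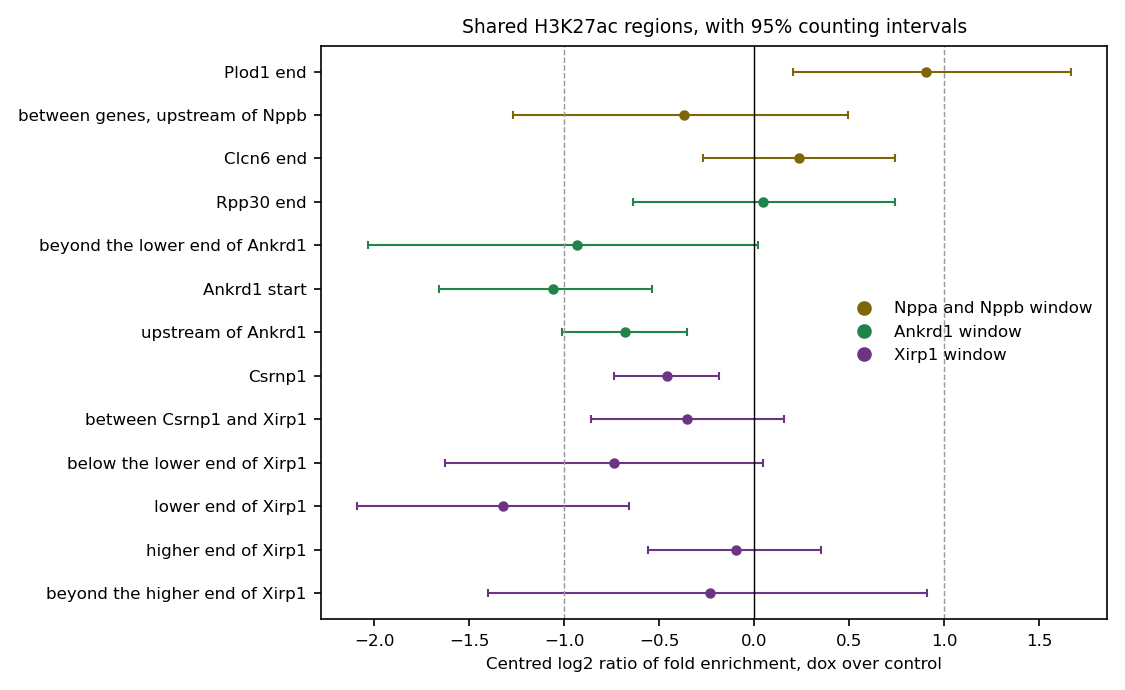
Centred log2 ratio of dox over control fold enrichment (x axis) for 13 of the 15 shared H3K27ac regions, named on the y axis by position and coloured by window. Bars are 95% counting intervals, and dashed lines stand at −1 and 1; the regions at the Ankrd1 start and the lower end of Xirp1 lie past −1, at −1.06 and −1.32.

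Over the 3 windows, control-only regions were the larger class. Of the 40 regions, 8 were dox-only, against 35.5% of all regions of the series. Shared were 15, or 37.5%, the same share as in the series, and 17 were control-only, or 42.5% against 27.1%. With intervals up to 500 bp apart joined there were 3 dox-only, 14 shared and 5 control-only regions, against 31.3%, 47.3% and 21.3% of all joined regions, so the count of control-only regions rests largely on gaps within domains. Of the 15 shared regions, 10 were below 0, while 50.0% of all shared regions were. None was at or above 1, against 6.78% of all shared regions, and the 2 at or below −1 stood against 8.31%.

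The median of the 15 log2 ratios was −0.35 (95% interval from order statistics, −0.74 to 0.16), and that of all shared regions is 0 by construction. The interval takes the regions as independent, though they are neighbours from the same pooled lists, and it measures no spread between samples. Without the Xirp1 window the median was 0.04, so its sign rests on that window. By window, the median was 0.23 at Nppa and Nppb, −0.81 at Ankrd1 and −0.41 at Xirp1. With 25 kb on each side a single shared region was left at Nppa and Nppb, the one upstream of Nppb, at −0.37, so the sign of that window rests on its outer neighbours. The counting intervals, which cover counting error only, lay below 0 at the Ankrd1 start, its upstream domain, Csrnp1 and the lower end of Xirp1. At Plod1 the interval lay above 0. How often such intervals exclude 0 over all shared regions was not determined, so no excess can be read from these. Within 25 kb of the genes the median was −0.68, and within 100 kb it was −0.07.

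**Figure D4:**
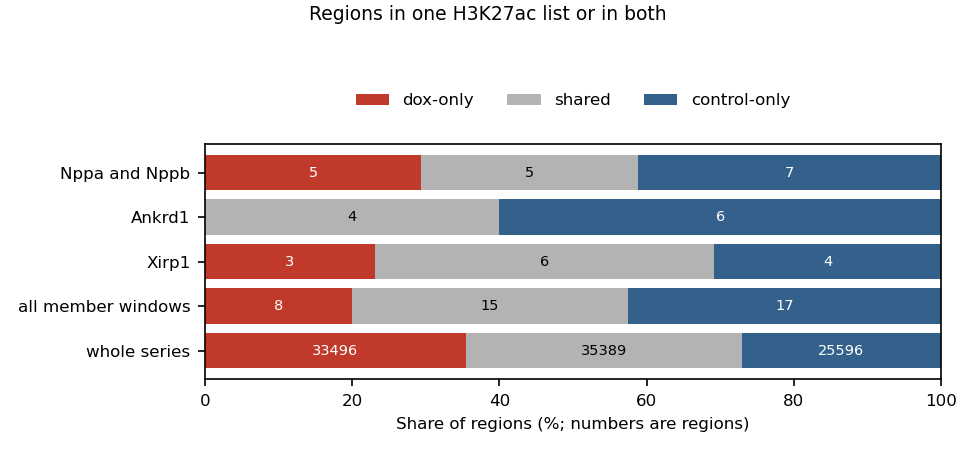
Share of H3K27ac regions (x axis, percent) that were dox-only, shared or control-only in each window, in all 3 windows together and in the whole series (y axis); the numbers in the bars are regions. The Ankrd1 window has no dox-only region, and control-only regions make up 42.5% of the 40 members against 27.1% in the series.

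The outermost regions inside the windows lay 48.9 kb from Nppb (Plod1), 27.8 and 6.9 kb from Ankrd1, and 28.1 and 3.7 kb from Xirp1. The first regions outside lay 80.8 and 81.9 kb from Nppb and Nppa, 140.6 and 57.8 kb from Ankrd1, and 76.1 and 86.7 kb from Xirp1. The 5 shared ones among those outside had log2 ratios of −0.47 (beside Ankrd1) to 0.65 (beyond Plod1).

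At the other genes of the natriuretic peptide system no gene was far lower in dox cells. For each gene the strongest region within 1000 bp of either end, called its end region here, was taken in each list. Npr1, the receptor of ANP and BNP, had a fold enrichment of 17.5 in dox and 11.0 in control cells, a log2 ratio of 0.80. Npr3, the clearance receptor that removes the peptides, had an end region in dox cells alone, with 10.4. Furin, a protease that cleaves the BNP precursor, had 22.9 in dox and 23.5 in control cells (0.10). Corin, which cleaves the ANP precursor, lacked one in dox and control cells. Pde5a, which degrades the second messenger cyclic GMP, had 22.3 in dox and 16.7 in control cells (0.55). Of the 14 genes of this list, Nppa and Nppb included, 5 had an end region in both lists and 6 had none. For 2 it was listed in dox cells only and for 1, Nppb, in control cells only. The 5 ratios ran from −0.02 to 0.80, with a median of 0.10. A GLI1 site lay within 50 kb of 4 of the 14 genes, Npr3, Furin, Pde5a and Prkg1, against 13.4% of all protein-coding genes.

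Among all 20467 analysed protein-coding genes, 48.1% had an end region in both lists and 46.7% had none. A dox-only end region was found for 2.95% and a control-only one for 2.2%. Of those in both, 3.77% were at or above 1 and 2.04% at or below −1, and 36.6% were below 0. Their median log2 ratio was 0.14.

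Most genes for sarcomeric strain sensors with an end region in both lists stood lower in dox cells. This list held the muscle ankyrin repeat, Xin and Z-disc genes, 16 in all, Ankrd1 and Xirp1 among them. Of these, 9 had an end region in both lists and 6 had none. Ttn, the titin gene, had one in control cells only (7.83), and no gene had one in dox cells only. The median of the 9 was −0.43, and 7 were below 0, against a median of 0.14 and 36.6% of all genes with an end region in both lists. Csrp3, the muscle LIM protein of the Z-disc, had 3.02 in dox and 11.0 in control cells (−1.73). By this measure Csrp3 and Ankrd1 were the only ones past −1. For Xirp1 the measure takes the stronger, higher end (−0.10) and leaves out the lower end at −1.32. Des, the gene of the muscle intermediate filament desmin, had 6.31 in dox and 13.1 in control cells (−0.92), and Nexn, which encodes an actin-binding Z-disc protein, had 12.3 in dox and 24.1 in control cells (−0.84). Ankrd23, a paralogue of Ankrd1, had −0.43, while Ankrd2 and the Xirp1 paralogue Xirp2 lacked an end region. Fhl1, whose product takes part in stretch sensing at titin, had 0.28.

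General stretch and stress genes were spread around 0. Of 16 genes, 12 had an end region in both lists, with a median of −0.03 and 6 on either side of 0. The YAP targets Ccn1 and Ccn2 had −0.07 and 0.09, with fold enrichments of 28.3 and 34.8 in dox cells and 32.5 and 35.8 in control cells. Among immediate early genes, Egr1 had 0.71, Fos 0.09 and Myc −0.74. Rcan1, an inhibitor of calcineurin, had an end region in control cells only (5.33), and none of the 12 was past 1 in size.

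Of 15 regulators known to act on Nppa and Nppb, 9 had an end region in both lists and 5 had none. Hopx, a homeodomain-only cofactor, had one in dox cells only (14.2). The 9 had a median of −0.30, and 7 were below 0, against 36.6% of all genes with both. The 3 at or below −1 were Myocd, the coactivator of SRF (−1.60), Tbx3, a T-box repressor (−1.17), and Hand2 (−1.05). Tbx20 had −0.32, Gata6 −0.25, Tead1, a partner of YAP, −0.19, and Srf 0.38. Gata4, Nkx2-5 and Tbx5, classical activators of Nppa, were among those with no end region. Within 50 kb, Gata4 had 7 dox-only, 9 shared and 11 control-only regions, and Nkx2-5 had 2 dox-only and 1 shared. Tbx5 had no region within 50 kb. A GLI1 site lay within 50 kb of 5 of these 15 regulators, 4 of the 16 strain-sensor genes and 2 of the 16 stretch and stress genes. Near the natriuretic peptide list it was 4 of 14 genes, so such sites were not particular to that list.

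**Figure D5:**
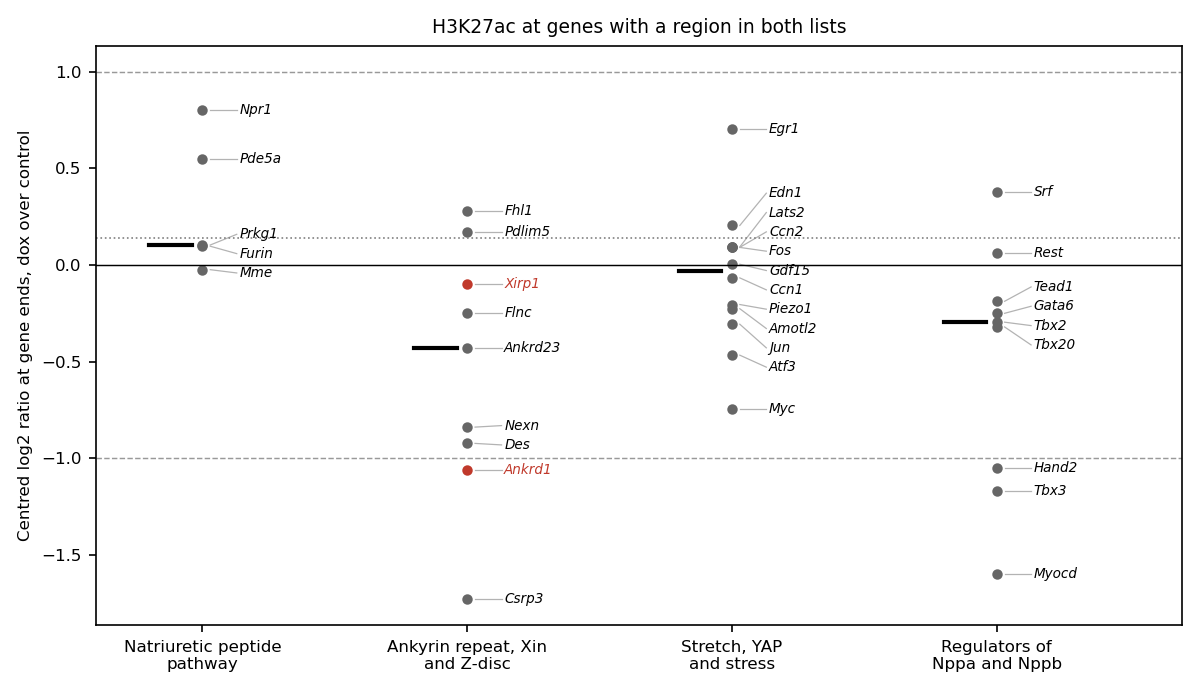
Centred log2 ratio at gene ends, dox over control (y axis), of each gene with a region in both lists, in 4 gene lists (x axis). Black bars are list medians, the dotted line is the median of all protein-coding genes (0.14), dashed lines stand at −1 and 1, and Ankrd1 and Xirp1 are in red.

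The cardiac label was checked against marker genes by the same measure. Of 11 cardiac markers, 4 had an end region in both lists, Myl7 and Actc1 had one in control cells only, and Nkx2-5, Gata4, Tbx5, Mef2c and Myh6 had none. Of the genes without an end region, all but Tbx5 had shared regions within 50 kb. The 4 log2 ratios were −1.35 for Tnnt2 (3.74 in dox and 10.4 in control cells), −1.05 for Hand2, −0.32 for Tbx20 and 0.19 for Isl1. Both analysed smooth muscle markers were lower in dox cells. Acta2 had 18.1 in dox and 24.3 in control cells (−0.29), and Tagln had 13.2 in dox and 27.5 in control cells (−0.93). Of 6 endothelial and blood markers, Pecam1 and Etv2 had an end region in both lists, with log2 ratios of 0.07 and 0.54. Cdh5, Kdr and Tal1 had a weak one in dox cells only (2.82 to 4.75), and Gata1 had none. The 3 analysed neural markers had none. Among pluripotency markers Nanog had 7.87 in dox and 12.8 in control cells (−0.57), and Pou5f1 and Zfp42 had none. Among endoderm markers Foxa2 had an end region in dox cells only (34.0), and Sox17 and Afp had none. Within 50 kb of Foxa2 lay 2 GLI1 sites, and 1 lay within 50 kb of Afp. So 3 of the 4 cardiac ratios, both smooth muscle ratios and that of Nanog were below 0, as were those at Ankrd1 and Xirp1. The part of cell composition in the results for these genes was not tested.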

How the data were processed

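The submitters' processing notes name MACS2 2.1.1, Bowtie2 2.3.2, SAMtools 1.5 and build mm10 without giving their roles. Per the deposited names, the authors combined replicates, removed blacklisted and mitochondrial peaks, and kept GLI1 summits that were replicated and held a Gli motif. Each deposited H3K27ac summit has a fold enrichment (ratio), a −log10 p, a −log10 q and a score that is the −log10 q multiplied by 10 and was not used. The authors' GLI1 windows of 101 bp have a −log10 q.

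Intervals of both lists sharing at least 1 bp were merged into regions. Whole-number pileups were recovered from fold enrichment and −log10 p within 0.01, after the method had been tested on simulated data. Counting intervals are Clopper-Pearson intervals of the ratio of 2 pileups, with the local background taken as fixed. Genes came from RefSeq GRCm38.p6, and 1420 of 21887 protein-coding genes with an end in a stretch of skipped peak numbers, a marker gene of smooth muscle and one of neural cells among them, were left out. No such stretch touched the windows. Of the member regions, 2 are not reported here one by one and enter only the counts and medians. Apart from these, regions are named if at an end of a member gene, holding a GLI1 site, past 1 in size, or among the 3 strongest of a window in either list. The others are given by range. Listed genes are named by size of ratio or by a region of at least 5 in a single list; others that are named were chosen after their values were seen. The members and lists were chosen with earlier results of these data known. Python 3.11.15, pandas 2.3.3 and scipy 1.17.1 were used.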

Additional observations from a re-analysis of the deposited data

How the results depend on the processing

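The 2 regions past −1 kept their sign and stayed past −1 without centring, with width-weighted mean fold enrichments, with recovered pileups and with a stricter overlap of intervals. All 60 values of the 15 shared regions under these settings stayed within their counting intervals, and 3 changed sign: −0.09 at Rpp30 without centring, −0.11 at Clcn6 with recovered pileups, and 0.05 between Csrnp1 and Xirp1 with mean fold enrichments. The counts of regions depended more on the settings. Peaks with a −log10 q of at least 10 gave 1 dox-only, 11 shared and 6 control-only regions, against 26.2%, 50.4% and 23.5% of all regions at that cut. With 25 kb on each side there were 5 dox-only, 9 shared and 16 control-only regions, and with 100 kb 12, 25 and 21. For both widths the shares over all regions are 35.5%, 37.5% and 27.1%. Joining intervals up to 500 bp apart, an alternative chosen after seeing the data, gave 3 dox-only and 5 control-only regions, against 31.3% and 21.3% of all joined regions. Holding both lists to a common −log10 p of 2.93 changed no count. The median log2 ratio of the shared regions ran from −0.68 (25 kb on each side) to 0.04 (without the Xirp1 window). The lists hold no value per sample, so differences between replicates cannot be seen, and signals below the peak threshold are not in them.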

Other observations

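A further GLI1 site, on chromosome 19 at 36184766 to 36184866, lay 64922 bp upstream of Ankrd1 and so outside the 50 kb window. It was stronger than the pair of sites at Xirp1, with a −log10 q of 86.9, a strength reached by 15.5% of all sites. It lay in a dox peak, 201 bp from a summit with a fold enrichment of 7.20, and in no control peak, where the nearest summit, 823 bp away, had 2.99. That dox peak was part of a shared region, so a control interval overlapped the peak away from the site.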
